A study of Carex littledalei with 18 samples.

Results

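The 80 genes described here had lower transcript levels in leaves of the sedge Kobresia littledalei (Carex littledalei) after 0.5 and 4 h at -5 °C than at 0 h or from 12 h on. They were picked from 214531 assembled genes by their values alone. In the authors' scaled expression table, the highest of the 5 libraries of 0.5 and 4 h had to lie below the lowest of the 11 libraries of the other times. In all, 140 genes met that condition. A mean of at least 2 at 0 h removed 42 of them, and a ceiling on the 12 h mean, 4 times the 0 h mean after adding 0.1 to each, removed 18 more. Up to 100 genes were to be taken, so all 80 that passed are members. Of the 28143 genes with a mean of at least 2 at 0 h, 0.348% lay apart in this low direction and 0.0355%, or 10 genes, lay apart in the opposite direction, with all 5 early values above the other 11. The minimum at 0 h favours the low direction, in which 0 h lies above the early values. These shares are thus not a like comparison of the 2 directions. The early low and the later return chose the members and are therefore described without a test.

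Field-collected plants from Tibet were potted, kept for 7 days at 25 °C and then put into a chamber at -5 °C. The groups are leaves taken after 0, 0.5, 4, 12, 24 and 48 h in that chamber, with 3 libraries each and 18 in all. The 0 h leaves are the unchilled baseline, and no genetic line or added agent is involved. Each time had a pot of its own, and no plants held at 25 °C for the same hours were included, so time in the cold, pot and time since the start cannot be told apart. The labels give neither the hour of day at collection nor whether the libraries of a time came from separate plants. The p-values below then measure only the spread between samples of a single pot, which may be technical.

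Cold-hardy plants respond to chilling and freezing in stages. In Arabidopsis, transcripts of cold-induced transcription factors appear soon after transfer, and transcripts for protective proteins, sugar metabolism and membrane lipids accumulate later as the plant acclimates. Transcripts of other genes decline in the same period, and their abundance reflects both synthesis and decay of the RNA. Row identifiers here come from a Trinity assembly and carry no gene names, so the role of a member cannot be stated. A Trinity gene groups transcripts assembled from related reads. The part of its identifier before "_c" is called its component here, a wider grouping than the assembler's own read clusters, which include the number after "_c". Members of a component can differ in that number, as TRINITY_DN208191_c1_g2 and TRINITY_DN208191_c2_g3 do. Copies, alleles or fragments of a single plant gene can stand as several members, and reads could be split among them. Without names, no leaf marker could be checked against the labelled tissue. In whole leaves, fewer cells of a type and less RNA per cell cannot be told apart.

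The library deposited as 0 h replicate 1 and the library deposited as 4 h replicate 1 had identical values in every row. Both columns were left out, because the labels give that set of values 2 times, leaving a pair of libraries for 0 h, a pair for 4 h and 3 for every later or intermediate time. The remaining 16 libraries held 18895399 to 32345479 counts. The list depends on this choice. With the identical library added to the 0 h libraries, 72 of the 80 members passed the same rule, and with it added to the 4 h libraries 11 of the 80 did. In that library 69 members lay at or above the lowest of the 11 other values, 3 lay between the 2 sets and 8 lay at or below the highest of the 5 early values.

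The early low was deep for some members and slight for others. The median scaled value of the 80 members lay between 1.42 and 2.46 in the 5 libraries of 0.5 and 4 h, against 7.71 to 25.6 in the other 11. Over all genes with a mean of at least 2 at 0 h, the same median stayed between 5.49 and 6.87 in the 16 libraries. The members took 0.0606% to 0.105% of a library's counts at 0.5 and 4 h, against 0.250% to 1.34% in the other libraries. Scaled values are the authors' signal, scaled for gene length and for library composition.

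**Figure D1:**
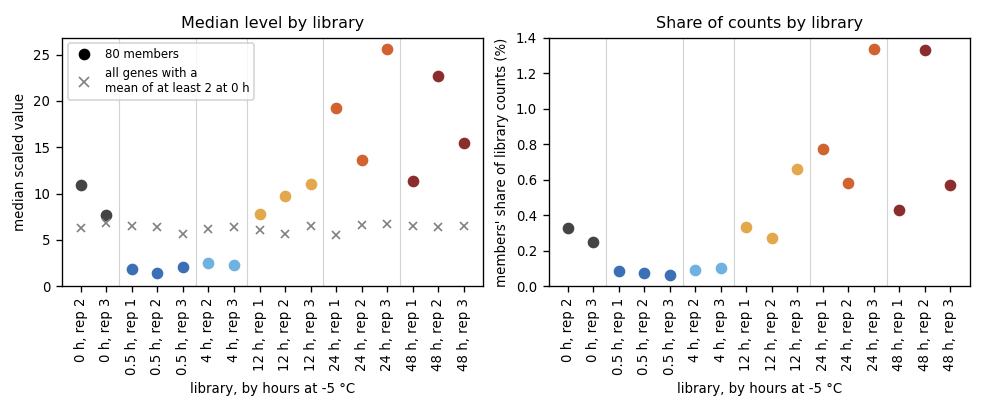
Median scaled value of the 80 members (filled points) and of all genes with a mean of at least 2 at 0 h (crosses) in each of 16 libraries, left, and the members' share of each library's counts in percent, right, with libraries ordered by hours at -5 °C. The members' medians lie between 1.42 and 2.46 in the 5 libraries of 0.5 and 4 h and between 7.71 and 25.6 in the others, while the medians of all genes lie between 5.49 and 6.87.

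By time, the median of the members' mean scaled values was 9.26 before the cold, 1.93 after 0.5 h and 2.62 after 4 h. It was 9.76 after 12 h, 19.4 after 24 h and 17.6 after 48 h. The depth of the low was measured as the mean of the 5 early values plus 0.1, divided by the lowest of the 0, 12, 24 and 48 h means plus 0.1. This ratio ranged from 0.0285 to 0.781 with a median of 0.252, which is 3.97-fold lower. By the same measure 9 members were at least 10-fold lower, 39 at least 4-fold and 69 at least 2-fold. The gap between the sets was narrower than the gap between means. Among the 77 members with a nonzero early value, the lowest of the 11 values was 1.38 times the highest of the 5 in the median member, and between 1.00 and 5.90 times over all 77.

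**Figure D2:**
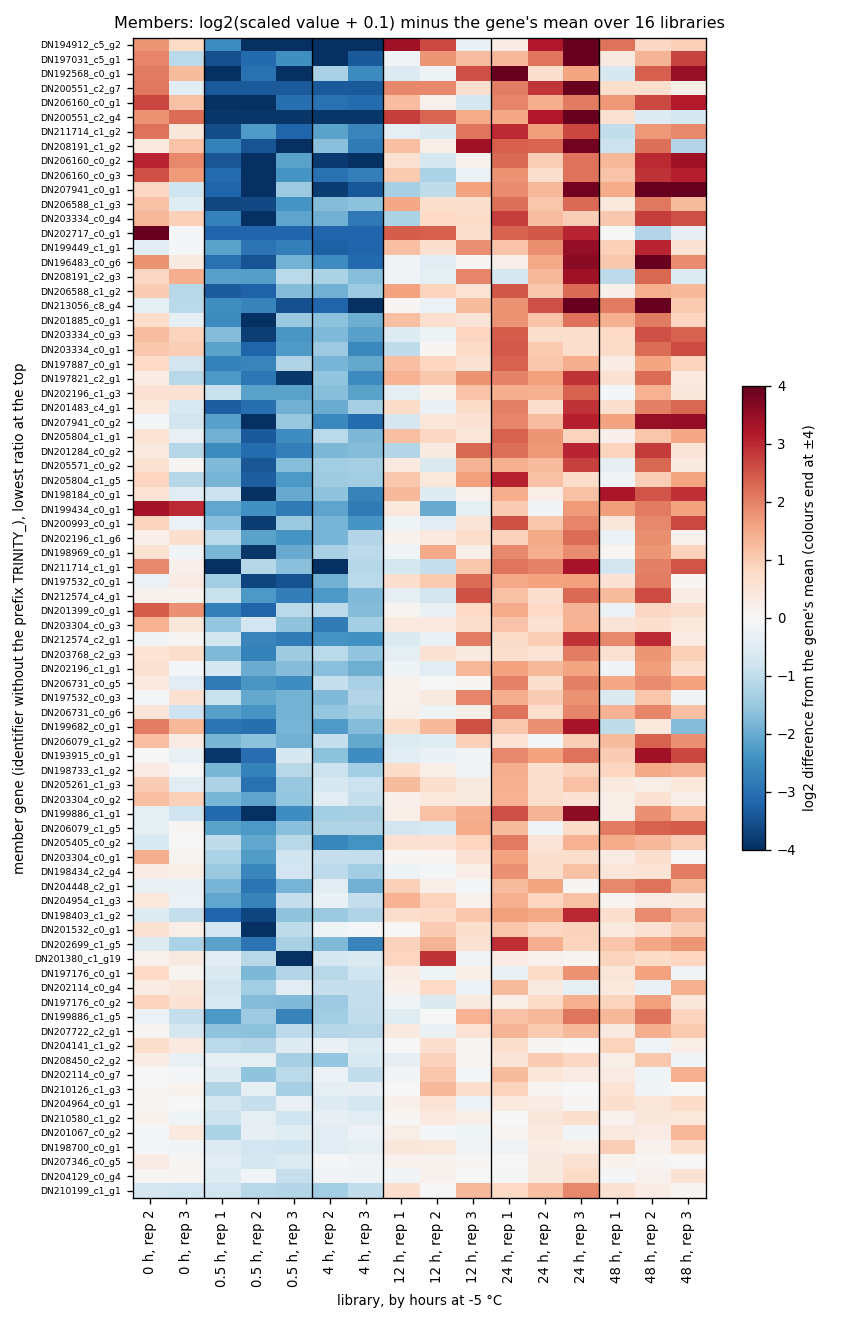
Each row is a member and each column a library, ordered by hours at -5 °C; colour shows log2(scaled value + 0.1) minus the gene's mean over the 16 libraries, with colours ending at 4 log2 units in either direction, and rows run from the lowest ratio (0.0285) to the highest (0.781). Blue fills the 5 columns of 0.5 and 4 h and fades toward the bottom rows, and red is strongest in the 24 and 48 h columns.

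The deepest low by this ratio was that of TRINITY_DN194912_c5_g2. Its scaled values were 7.30 and 3.64 at 0 h, 0.293, 0 and 0 at 0.5 h, 0 and 0 at 4 h, 22.7, 13.6 and 1.73 at 12 h, 2.60, 19.8 and 48.0 at 24 h, and 9.72, 3.77 and 4.13 at 48 h. A single early library held any of this transcript, with 2 reads. The gene's mean over the 5 early libraries was 0.0586, against 5.47 at 0 h, the lowest of the other means. With 0.1 added to each it was 35.1-fold lower, a fold that depends on the added 0.1. TRINITY_DN197031_c5_g1, 19.9-fold lower, had scaled values of 6.01 and 0.653 at 0 h, 0.039, 0.083 and 0.188 at 0.5 h, 0 and 0.052 at 4 h, 1.33, 5.22 and 3.62 at 12 h, 3.73, 6.88 and 43.3 at 24 h, and 1.91, 3.97 and 10.2 at 48 h. Here the 0 h libraries differed widely, and the lower of them set the gap to the early values. TRINITY_DN192568_c0_g1, 16.5-fold lower, had scaled values of 12.7 and 7.23 at 0 h, 0, 0.283 and 0 at 0.5 h, 1.13 and 0.414 at 4 h, 1.99, 2.51 and 18.2 at 12 h, 48.9, 4.63 and 9.04 at 24 h, and 1.86, 15.8 and 33.6 at 48 h. Both of its 4 h values lay above all of its 0.5 h values.

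TRINITY_DN211714_c1_g2 was 12.3-fold lower. Its scaled values were 10.8 and 3.2 at 0 h, 0.108, 0.407 and 0.163 at 0.5 h, 0.444 and 0.290 at 4 h, 1.73, 1.53 and 10.5 at 12 h, 19.2, 7.63 and 15.2 at 24 h, and 1.12, 7.90 and 9.10 at 48 h. TRINITY_DN208191_c1_g2, 11.8-fold lower, had scaled values of 2.99 and 5.07 at 0 h, 0.262, 0.116 and 0 at 0.5 h, 0.640 and 0.228 at 4 h, 5.34, 2.67 and 24.7 at 12 h, 12.3, 11.8 and 34.2 at 24 h, and 1.18, 10.7 and 0.939 at 48 h. In both genes the lowest of the 11 values was a 48 h library and all 24 h values stood above both 0 h values in the second gene.

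In 3 members no read was counted in any of the 5 early libraries. A count of 0 was bounded with 3 counts over those libraries, which covers counting error only and equals 0.0241 CPM. On that bound TRINITY_DN200551_c2_g7 was at least 20.4-fold lower than its lowest other mean, TRINITY_DN200551_c2_g4 at least 9.20-fold and TRINITY_DN202717_c0_g1 at least 7.16-fold. The scaled values of TRINITY_DN200551_c2_g7 outside the early times were 4.28 and 0.653 at 0 h, 3.83, 3.80 and 1.55 at 12 h, 4.11, 7.39 and 17.4 at 24 h, and 1.57, 1.53 and 1.11 at 48 h. Those of TRINITY_DN200551_c2_g4 were 5.13 and 6.97 at 0 h, 10.003, 7.36 and 4.06 at 12 h, 4.31, 13.7 and 40.1 at 24 h, and 2.16, 0.951 and 0.837 at 48 h. Those of TRINITY_DN202717_c0_g1 were 14.7 and 0.778 at 0 h, 4.70, 4.61 and 1.35 at 12 h, 4.48, 4.97 and 7.29 at 24 h, and 0.799, 0.299 and 0.622 at 48 h. All 3 were low again at 48 h, with every 48 h value below every 24 h value. Low counts limit several members: 6 had under 10 reads over the 5 early libraries, and 6 had under 10 reads in the lowest of the 11 others. The median member had 309.5 reads over the 5 early libraries and 4800.5 over all 16.

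The low also reached abundant transcripts. TRINITY_DN199886_c1_g5, the most abundant member on the scaled, per-length table, had scaled values of 501 and 306 at 0 h, 121, 216 and 93.6 at 0.5 h, 223 and 299 at 4 h, 426, 603 and 1554 at 12 h, 1325, 1496 and 2626 at 24 h, and 1489, 2640.2 and 1103 at 48 h. Its low was 2.12-fold and its highest early value nearly reached its lowest 0 h value. Its means were 1744 ± 800 at 48 h (SD, n = 3) and 1816 ± 707 at 24 h (SD, n = 3), against 404 ± 138 at 0 h (SD, n = 2), and all 6 of these late values exceeded both 0 h values.

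TRINITY_DN206588_c1_g3, 7.58-fold lower, had scaled values of 588 and 188 at 0 h, 20.9, 21.5 and 50.6 at 0.5 h, 79.1 and 83.5 at 4 h, 777, 429 and 426 at 12 h, 1204, 572 and 1257 at 24 h, and 353, 1126 and 637 at 48 h. TRINITY_DN206588_c1_g2, of the same component and 5.53-fold lower, had scaled values of 214 and 48.7 at 0 h, 10.5, 11.2 and 31.3 at 0.5 h, 27.4 and 38.1 at 4 h, 321, 194 and 155 at 12 h, 583, 220.4 and 501 at 24 h, and 122, 283 and 259 at 48 h. In both genes 0 h replicate 2 lay above replicate 3, and 24 h replicate 2 was the lowest of its time. TRINITY_DN201885_c0_g1, 5.28-fold lower, had scaled values of 184 and 84.7 at 0 h, 19.4, 4.38 and 39.6 at 0.5 h, 35.3 and 28.3 at 4 h, 254, 174 and 159 at 12 h, 381, 243 and 499 at 24 h, and 299, 462 and 199.5 at 48 h. Its 24 and 48 h values all stood above both 0 h values.

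The other 6 of the 10 most abundant members were TRINITY_DN202699_c1_g5, TRINITY_DN205571_c0_g2, TRINITY_DN205261_c1_g3, TRINITY_DN197887_c0_g1, TRINITY_DN201284_c0_g2 and TRINITY_DN201483_c4_g1. Their folds below the lowest other mean were 2.27 for TRINITY_DN202699_c1_g5, 4.34 for TRINITY_DN205571_c0_g2, 3.06 for TRINITY_DN205261_c1_g3, 4.61 for TRINITY_DN197887_c0_g1, 4.35 for TRINITY_DN201284_c0_g2 and 4.43 for TRINITY_DN201483_c4_g1. TRINITY_DN202699_c1_g5 had the largest 12 h mean relative to 0 h among members, 3.59 times, just under the ceiling of the rule. Its scaled values were 65.6 and 39.3 at 0 h, 21.5, 12.2 and 38.4 at 0.5 h, 28.0 and 14.9 at 4 h, 181, 243 and 142 at 12 h, 723, 258 and 177 at 24 h, and 202, 279 and 324 at 48 h. TRINITY_DN205261_c1_g3 stood at its lowest later mean at 48 h, with scaled values of 239 and 87.2 at 0 h, 50.3, 14.8 and 41.6 at 0.5 h, 75.8 and 65.3 at 4 h, 283, 193 and 151 at 12 h, 319, 184 and 268 at 24 h, and 156, 140.2 and 159 at 48 h. The 48 h values of this gene lay within the range of its 0 h pair.

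TRINITY_DN205571_c0_g2 had scaled values of 149 and 100.4 at 0 h, 28.8, 8.97 and 29.9 at 0.5 h, 37.3 and 38.6 at 4 h, 127, 64.5 and 248 at 12 h, 262, 234 and 654 at 24 h, and 78.2, 476 and 125 at 48 h. TRINITY_DN201284_c0_g2 had scaled values of 82.1 and 28.1 at 0 h, 10.4, 7.196 and 9.22 at 0.5 h, 17.6 and 18.5 at 4 h, 27.4, 79.3 and 306 at 12 h, 286, 207 and 518 at 24 h, and 114, 434 and 89.5 at 48 h. In both, 4 h stood above 0.5 h in every library and 24 h above both 0 h values, while the 12 and 48 h replicates differed several-fold. TRINITY_DN197887_c0_g1 had scaled values of 166 and 57.3 at 0 h, 14.6, 15.3 and 41.5 at 0.5 h, 26.4 and 22.9 at 4 h, 222, 174 and 146 at 12 h, 489, 206 and 262 at 24 h, and 118, 288 and 177 at 48 h. TRINITY_DN201483_c4_g1 had scaled values of 77.4 and 37.5 at 0 h, 5.67, 7.00 and 15.0 at 0.5 h, 14.4 and 22.5 at 4 h, 94.3, 47.5 and 96.1 at 12 h, 233, 92.1 and 421 at 24 h, and 88.7, 229.8 and 281 at 48 h. At 0.5 and 4 h the libraries of these genes overlapped, and all their 24 h values lay above both 0 h values.

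**Figure D3:**
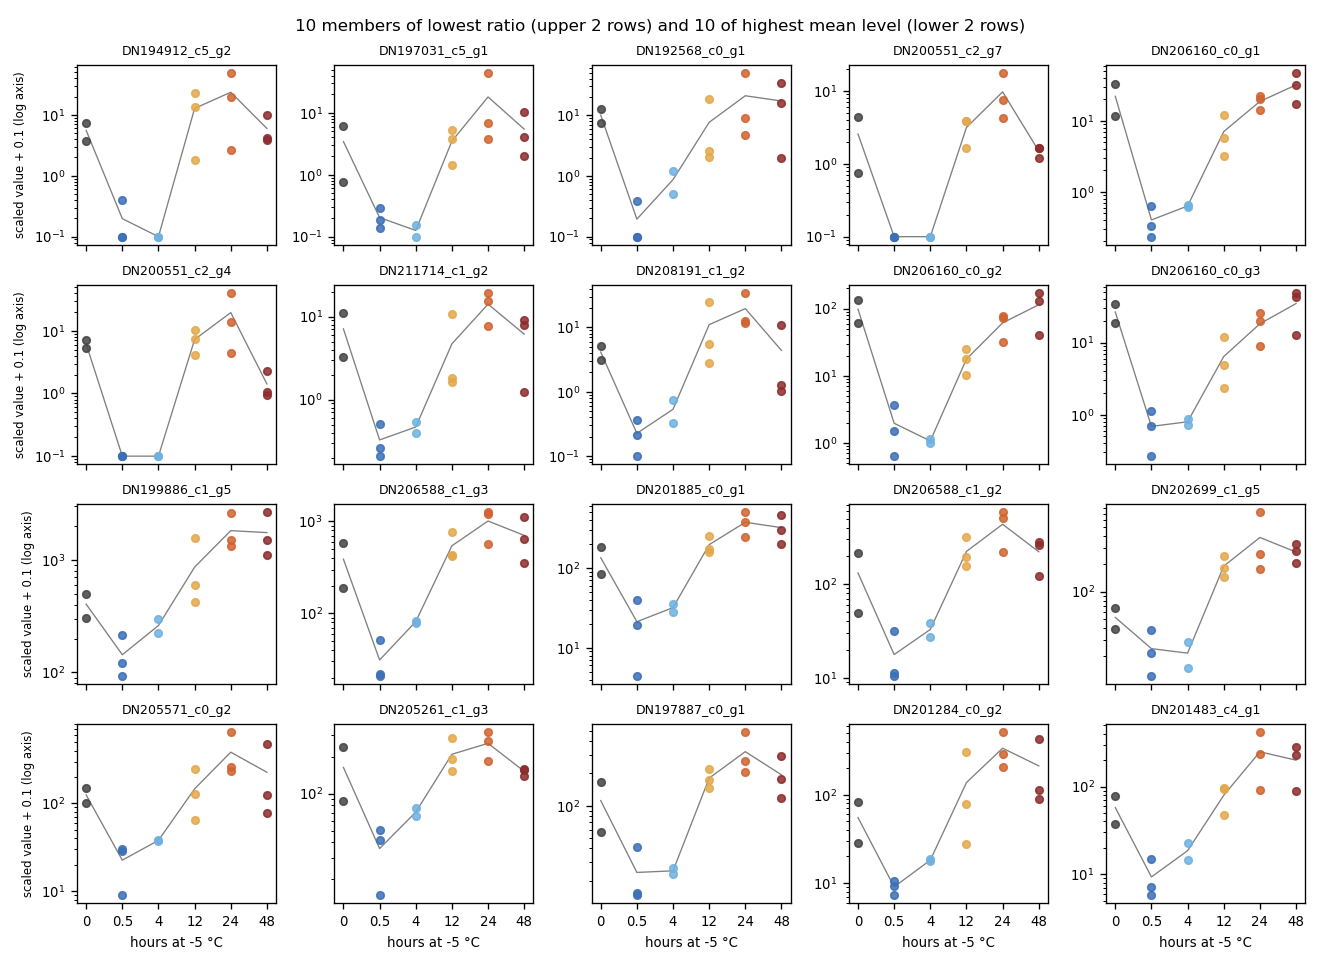
Scaled value plus 0.1, on a log axis, against hours at -5 °C (times evenly spaced) for the 10 members of lowest ratio (upper 2 rows of panels) and the 10 of highest mean (lower 2 rows); points are libraries and the line joins the means of each time. In every panel the points of 0.5 and 4 h lie below all other points, by a wide gap in TRINITY_DN206160_c0_g2 and by a narrow one in TRINITY_DN199886_c1_g5.

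The rule did not order 4 h and 0.5 h, so their difference was tested. It did hold both 4 h values below the 11 others, so a gene already back by 4 h could not be a member. The comparison can therefore show only a partial rise below that limit. With edgeR's quasi-likelihood test, 0 of the 80 members passed an adjusted p of 0.05 (Benjamini-Hochberg over all 68030 genes tested), and 0% of all genes did. All 80 members were among the genes tested. DESeq2 and limma called 0 members as well, beside 0.534% of all genes for DESeq2 and 0.243% for limma. In edgeR's quasi-likelihood test 4 members had an unadjusted p under 0.05, which is 5.0% of them against 7.71% of all genes. The fitted log2 fold change was above 0 in 54 members, below 0 in 23 and 0 in the 3 with no early read. Its median was 0.31 in members against -0.11 in all genes, within a range of -2.62 to 2.34. On the scaled table both 4 h values exceeded all 0.5 h values in 18 members, or 22.5%, beside 16.1% of genes with a mean of at least 2 at 0 h, and lay below them all in 2 members, or 2.50%, beside 11.5%.

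The median at 4 h against 0.5 h leaned on single libraries. It was 0.08 without 0.5 h replicate 2, which had the highest value of its time in only 12 of the 80 members, and 0.61 without 0.5 h replicate 3. With the identical library used at 4 h alone the median was 1.5, with 0 members called. The smallest p of a member belonged to TRINITY_DN206731_c0_g5, which was singled out after its values were seen. Its scaled values were 2.49 and 1.87 at 4 h, against 0.594, 0.873 and 0.776 at 0.5 h. The groups did not overlap, and its log2 fold change was 1.51 with an SE of 0.47 (adjusted p = 0.54, edgeR's quasi-likelihood test). This SE, like those below, is back-calculated from the test statistic.

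By 12 h the members stood on either side of their 0 h level. The 12 h mean was 0.0866 to 3.59 times the 0 h mean, with 0.1 added to each as in all such ratios here. It was over 2 times in 14 members and under 0.5 times in 8, and the ceiling of the rule bounds the upper side. The 12 h mean was higher than the 0 h mean in 49 members and lower in 31. Among all genes with a mean of at least 2 at 0 h, it was higher in 41.3%. The 12 h mean was the lowest of the 4 means outside the early times in 29 members, while the 0 h mean was the lowest in 44. The 48 h mean took that place for 6 members and the 24 h mean for 1. Among all genes with a mean of at least 2 at 0 h, the lowest was 0 h in 22.7%, 12 h in 25.6%, 24 h in 24.2% and 48 h in 27.6%. The lowest 12 h mean relative to 0 h was that of TRINITY_DN199434_c0_g1, singled out after its values were seen. It had scaled values of 7.18 and 5.56 at 0 h, 0.858, 0.079 and 0.444 at 12 h, 1.35, 0.571 and 2.22 at 24 h, and 2.18, 2.95 and 2.10 at 48 h, so that every later value lay below both 0 h values. Its early values were 0.069, 0.033 and 0 at 0.5 h and 0.065 and 0 at 4 h. Only 3 reads were counted over the 5 early libraries and 1 in the lowest of the 11 others, so its place on the list rests on very few reads. Means at 12, 24 and 48 h were all below the 0 h mean in 5 members and all above it in 44.

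From 24 h most members exceeded their starting level. Of the 6 times, 24 h gave the highest mean for 49 members and 48 h for 24, while 5 peaked at 0 h and 2 at 12 h. Among all genes with a mean of at least 2 at 0 h, 12.5% peaked at 24 h and 20.5% at 48 h, while 22.0% peaked at 0 h and 10.2% at 12 h. The 24 h mean was above the 0 h mean in 69 of the 80 members, beside 41.6% of those genes, and at least 2 times it in 45 members. Over the 80 members it ranged from 0.228 to 16.9 times the 0 h mean. All 24 h values exceeded both 0 h values in 40 members, beside 7.03% of genes with a mean of at least 2 at 0 h. The 48 h mean was above the 0 h mean in 66 members, beside 46.3% of those genes. All 48 h values exceeded both 0 h values in 30 members, beside 9.88%. Both the 24 h and the 48 h mean were above the 0 h mean in 60 members. The condition that 0 h lie above the early values and the ceiling at 12 h both involve the 0 h libraries, so these counts are given as description.

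Calls against the contrasts that the rule used are listed only for completeness. With edgeR's quasi-likelihood test, 0.5 h against 0 h called 1 member, TRINITY_DN206160_c0_g1, as lower, with an adjusted p of 0.039, beside 0.00588% of all genes tested. In 4 h against 0 h, 0 members and 0% of genes were called. An unadjusted p under 0.05 was reached by 49 members, or 61.25%, against 4.95% of all genes tested. In 12 h against 4 h, 0 members were called beside 0.0382% of genes. Here 65 members, or 81.25%, had an unadjusted p under 0.05, against 6.04% of all genes tested. Against 0 h, 0 members were called at 12 h beside 0.022% of genes, at 24 h beside 0.0323% and at 48 h beside 0.0779%. Members with an unadjusted p under 0.05 numbered 10 (12.5%) at 12 h, 31 (38.75%) at 24 h and 26 (32.5%) at 48 h. The shares of all genes tested at that threshold were 6.58%, 6.78% and 10.3%. Nothing is read from these counts.

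The comparison of 24 h with 12 h asks whether the members kept climbing after their return. The ceiling of the rule uses the 12 h mean and favours members with low 12 h values, so the values of the 80 members are a description. The 24 h mean was higher than the 12 h mean in 77 of the 80 members, beside 51.1% of genes with a mean of at least 2 at 0 h. All 24 h values exceeded all 12 h values in 19 members, or 23.8%, beside 2.40% of those genes, and lay below them all in 0 members, beside 1.19%. In the fit, edgeR's quasi-likelihood test called 0 of 80 members and 0% of all 68030 genes, and every member's adjusted p was 1.0. DESeq2 and limma called 0 members too, beside 0.0353% of all genes for DESeq2 and 0% for limma. In edgeR's quasi-likelihood test an unadjusted p under 0.05 was reached by 24 members, or 30.0%, against 2.97% of all genes.

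The fitted log2 fold change of 24 h over 12 h had a median of 1.02 in members and 0.00 in all genes, was above 0 in 75 members and ranged from -1.89 to 2.98. The same values were also taken, as a choice made after seeing the data, over all 98 genes that pass the rule without its ceiling. Of these 98 genes, 94 had a higher mean at 24 h than at 12 h, including 17 of the 18 genes that the ceiling had removed. All 24 h values exceeded all 12 h values in 21 of them, or 21.4%, and lay below them all in 0. Their median log2 fold change was 1.0, 25 of them, or 25.5%, had an unadjusted p under 0.05, and edgeR's quasi-likelihood test called 0. For the 80 members, leaving out 24 h replicate 3 gave a median of 0.79, leaving out replicate 1 of that time gave 0.80, and leaving out replicate 2 gave 1.24. Members are not independent of each other, since 38 of them share a component with another member.

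The largest step was that of TRINITY_DN213056_c8_g4, which is also the member with the highest 48 h level relative to 0 h, 18.3 times. Its scaled values were 3.80 and 2.28 at 0 h, 0.811, 0.673 and 0.338 at 0.5 h, 0.444 and 0.103 at 4 h, 5.02, 4.09 and 11.8 at 12 h, 17.0, 29.7 and 112 at 24 h, and 21.0, 141 and 10.2 at 48 h. The 24 h values lay above all 12 h values, with 24 h replicate 3 and 48 h replicate 2 far above the other libraries of their times. Its log2 fold change of 24 h over 12 h was 2.98 with an SE of 0.89 (adjusted p = 1.0, edgeR's quasi-likelihood test). The smallest p of a member was that of TRINITY_DN206731_c0_g5, with scaled values of 19.3, 7.64 and 19.7 at 24 h against 5.39, 4.78 and 4.92 at 12 h and a log2 fold change of 1.69 with an SE of 0.42 (adjusted p = 1.0 in the same test).

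**Figure D4:**
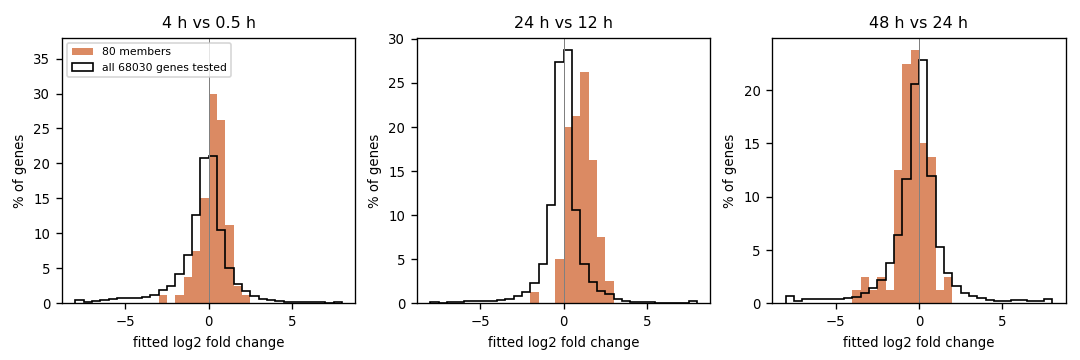
Share of genes in percent against fitted log2 fold change for 4 h against 0.5 h, 24 h against 12 h (where the rule capped the 12 h mean) and 48 h against 24 h, with the 80 members filled and all 68030 tested genes outlined; fold changes past the ends are drawn in the outermost bins. Members centre at 0.31 for 4 h against 0.5 h, at 1.02 for 24 h against 12 h and at -0.32 for 48 h against 24 h, against -0.11, 0.00 and -0.02 for all genes, and 0 members passed the adjusted threshold in each.

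Between 24 and 48 h the members did not move together. Set against 12 h, the 48 h mean was higher in 63 members, beside 54.1% of genes with a mean of at least 2 at 0 h. All 48 h values exceeded all 12 h values in 19 members, or 23.8%, beside 8.66% of those genes. The 48 h mean was lower than the 24 h mean in 53 members and higher in 27, while it was higher in 54.0% of those genes. All 48 h values lay below all 24 h values in 9 members, or 11.3%, beside 7.38% of genes with a mean of at least 2 at 0 h, and above them all in 5 members, or 6.25%, beside 9.63%. The log2 fold change of 48 h over 24 h had a median of -0.32 in members and -0.02 in all genes. Leaving out 48 h replicate 2 gave a median of -0.66, leaving out 24 h replicate 2 gave -0.50, and leaving out 24 h replicate 1 gave -0.21. With edgeR's quasi-likelihood test 0 members were called, beside 0.0955% of all genes, and 11 members, or 13.8%, had an unadjusted p under 0.05, against 11.4% of all genes. DESeq2 called 3 members, or 3.75%, beside 2.27% of all genes, and limma on the scaled table called 1, or 1.25%, beside 0.985%. All of these were lower at 48 h, and their shares lay near those of all genes.

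Those lower at 48 h by DESeq2 were TRINITY_DN200551_c2_g4, TRINITY_DN202717_c0_g1 and TRINITY_DN199682_c0_g1. In edgeR's quasi-likelihood test the log2 fold change of TRINITY_DN200551_c2_g4 was -3.91 with an SE of 0.94 (adjusted p = 0.15), and DESeq2 gave it an adjusted p of 0.0062. TRINITY_DN202717_c0_g1, the member with the lowest 48 h level relative to 0 h, 0.0860 times, had a log2 fold change of -3.43 with an SE of 1.01 (adjusted p = 0.22 in edgeR and 0.049 in DESeq2). TRINITY_DN199682_c0_g1 had scaled values of 0.905, 2.61 and 0.509 at 48 h, against 4.25, 7.12 and 19.8 at 24 h. Its log2 fold change was -3.41 with an SE of 0.79 (adjusted p = 0.12 in edgeR and 0.0015 in DESeq2), and its groups did not overlap. TRINITY_DN199682_c0_g1 is outside the naming rule and was named because DESeq2 called it. In these 3 genes the 48 h mean was the lowest mean outside the early times.

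The opposite course was seen in TRINITY_DN198184_c0_g1, singled out after its values were seen. It had scaled values of 395, 234 and 314 at 48 h, against 114, 49.3 and 91.8 at 24 h, with no overlap, and a log2 fold change of 1.84 with an SE of 0.78 (adjusted p = 0.37, edgeR's quasi-likelihood test). Its values at the other times were 59.6 and 30.0 at 0 h, 22.4, 0.831 and 10.1 at 0.5 h, 13.3 and 6.29 at 4 h, and 100.1, 28.7 and 46.5 at 12 h. Its 0.5 h libraries differed most among themselves.

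Some members shared a component, and no count for other sets of genes was taken to set beside theirs. The 80 members came from 59 components, of which 42 held 1 member, 13 held 2 and 4 held 3. Over the 16 libraries, Pearson's r of log2(scaled value + 0.1) between members of the same component had a median of 0.958 over 25 pairs and a lowest value of 0.786. Between members of different components the median was 0.788 over 3135 pairs, a value that contains the early low by which all were chosen. Over the 11 libraries outside the early times, the medians were 0.889 within a component and 0.323 between components, and 21.8% of pairs from different components had an r below 0. These are descriptions across libraries that share depth and pot, and reads shared between similar sequences would also raise r within a component.

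In component DN206160, TRINITY_DN206160_c0_g2 had scaled values of 135 and 61.7 at 0 h, 1.41, 0.532 and 3.62 at 0.5 h, 1.05 and 0.879 at 4 h, 24.8, 10.1 and 17.9 at 12 h, 78.2, 32.2 and 73.3 at 24 h, and 40.9, 130.0 and 172 at 48 h. TRINITY_DN206160_c0_g1 had 32.6 and 11.5 at 0 h, 0.232, 0.133 and 0.538 at 0.5 h, 0.553 and 0.507 at 4 h, 12.1, 5.67 and 3.08 at 12 h, 20.008, 13.9 and 21.9 at 24 h, and 17.2, 32.1 and 46.4 at 48 h on the same scale. TRINITY_DN206160_c0_g3 had scaled values of 34.6 and 18.4 at 0 h, 0.587, 0.166 and 1.01 at 0.5 h, 0.629 and 0.766 at 4 h, 11.9, 2.28 and 4.77 at 12 h, 19.9, 8.98 and 25.7 at 24 h, and 12.5, 42.8 and 49.0 at 48 h. All 3 had a higher mean at 24 h than at 12 h and their highest mean at 48 h, with every 12 h value below the lower 0 h value of TRINITY_DN206160_c0_g2 and TRINITY_DN206160_c0_g3. Their pairwise r lay between 0.975 and 0.987.

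In component DN203334 the means of all 3 members were highest at 48 h and next highest at 24 h. TRINITY_DN203334_c0_g4 had scaled values of 10 and 7.75 at 0 h, 0.517, 0.1 and 0.838 at 0.5 h, 0.976 and 0.455 at 4 h, 1.57, 6.89 and 6.61 at 12 h, 27.3, 9.48 and 7.99 at 24 h, and 8.35, 27.5 and 24.1 at 48 h. TRINITY_DN203334_c0_g3 and TRINITY_DN203334_c0_g1 were 5.24-fold and 5.01-fold lower at the early times, against 7.56-fold for TRINITY_DN203334_c0_g4, with pairwise r between 0.980 and 0.988. In all 3 the same libraries, 24 h replicate 1 and 48 h replicates 2 and 3, held the highest values.

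Component DN202196 peaked earlier. TRINITY_DN202196_c1_g3 had scaled values of 28.2 and 28.0 at 0 h, 10.1, 4.25 and 4.17 at 0.5 h, 5.79 and 4.23 at 4 h, 14.4, 20.6 and 42.1 at 12 h, 51.7, 50.3 and 96.7 at 24 h, and 18.1, 49.5 and 25.8 at 48 h. Its 24 h values lay above all others. TRINITY_DN202196_c1_g6 and TRINITY_DN202196_c1_g1 were 4.20-fold and 3.58-fold lower at the early times, against 4.44-fold for TRINITY_DN202196_c1_g3, with pairwise r between 0.923 and 0.972. Component DN203304 held a member that was highest before the cold. TRINITY_DN203304_c0_g2 had scaled values of 82.1 and 69.0 at 0 h, 10.1, 8.15 and 12.1 at 0.5 h, 26.0 and 18.7 at 4 h, 41.0, 47.2 and 46.0 at 12 h, 94.1, 57.6 and 53.6 at 24 h, and 41.9, 53.9 and 41.3 at 48 h. Its highest mean was at 0 h, and 4 h stood above 0.5 h in every library. TRINITY_DN203304_c0_g3 was 3.93-fold lower at the early times and TRINITY_DN203304_c0_g1 2.66-fold, against 2.97-fold for TRINITY_DN203304_c0_g2, with pairwise r between 0.786 and 0.935.

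**Figure D5:**
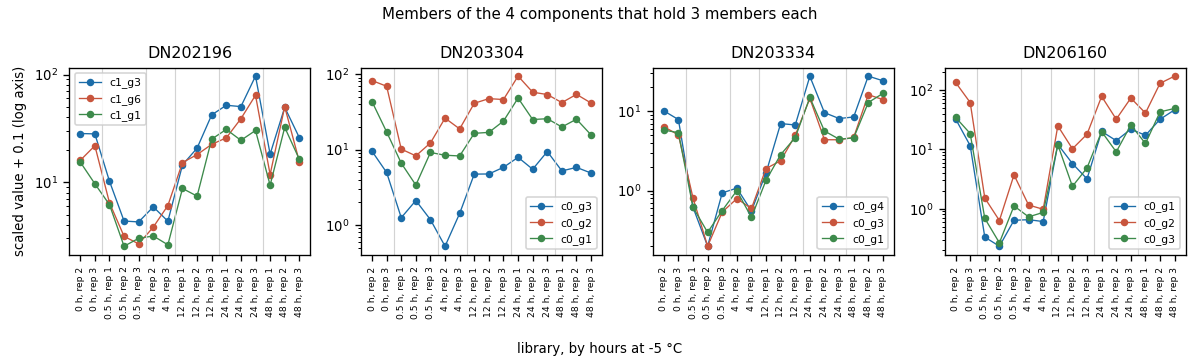
Scaled value plus 0.1, on a log axis, in each of 16 libraries ordered by hours at -5 °C, for the members of the 4 components that hold 3 members each; each line is a gene. Lines of a component run nearly parallel in DN206160 (pairwise r 0.975 to 0.987) and DN203334 (0.980 to 0.988) and less so in DN203304 (0.786 to 0.935).

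Other genes of these components tended the same way. Members aside, 38 of the components held 63 genes with a mean of at least 2 at 0 h, and 47 of these, or 74.6%, had a ratio below 1, against 16.3% of all such genes in the assembly. A ratio below 0.5 was reached by 20 of the 63, or 31.7%, against 1.30% of all such genes. Their median ratio was 0.654, against 1.33 for all. These genes missed the list because their early and other values overlapped or because of the ceiling at 12 h. The ratio is the one that ranked the members, and each component was chosen through a member, so these shares are a description. Some of these genes could be copies or fragments of a member or share reads with it, which was not tested.

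Replicates of a time differed in a way the members shared. At 0 h, replicate 2 was above replicate 3 in 63 of the 80 members, against 47.1% of genes with a mean of at least 2 at 0 h. At 24 h, replicate 2 held the highest value in 4 members, against 28.6% of those genes, and replicate 3 in 43 members, against 40.1%. At 48 h, replicate 2 held the highest value in 44 members, against 32.2%. The median SD of log2(scaled value + 0.1) within a time was 0.46 in members at 0 h against 0.51 in all those genes, 0.70 against 0.63 at 0.5 h, 0.28 against 0.27 at 4 h, 0.63 against 0.61 at 12 h, 0.68 against 0.53 at 24 h and 0.71 against 0.51 at 48 h. The highest replicate was 2.50 times the lowest in the median member at 24 h and 2.63 times at 48 h. Many members thus shared the library in which they were highest, and the source of that shared spread was not tested. Relative to the typical gene, the members' transcript lengths had a median of 1.12 and a range from 0.183 to 6.08, and 43 of 80 were longer.

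At the border of the rule, values just inside and just outside differed little. The last members by ratio were TRINITY_DN204129_c0_g4, at 0.773, and TRINITY_DN210199_c1_g1, at 0.781. In TRINITY_DN204129_c0_g4 the highest early scaled value was 9.12 and the lowest other value 9.22. TRINITY_DN199682_c0_g1 passed with a highest early value of 0.507 and a lowest other value of 0.509, while TRINITY_DN192684_c0_g1 missed with 3.08 and 3.07. TRINITY_DN210199_c1_g1 passed the minimum at 0 h with a mean of 2.08, and TRINITY_DN206529_c1_g3 missed it with 1.88. TRINITY_DN194851_c0_g2, at a 12 h mean 4.01 times its 0 h mean, was the nearest gene above the ceiling.

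The 5 genes outside the list whose profile was most like the members' mean profile were all kept out by the 12 h ceiling. Pearson's r over the 16 libraries, which includes the early low, was 0.958 for TRINITY_DN200823_c4_g3, 0.952 for TRINITY_DN200982_c0_g4, 0.950 for TRINITY_DN205025_c1_g1, 0.947 for TRINITY_DN202528_c1_g3 and 0.946 for TRINITY_DN200551_c2_g2. TRINITY_DN200551_c2_g2 belongs to the component of the members TRINITY_DN200551_c2_g4 and TRINITY_DN200551_c2_g7. It had scaled values of 17.8 and 5.59 at 0 h, listed 0 in all 5 early libraries, and reached 86.0, 39.6 and 19.1 at 12 h, 52.9, 62.4 and 227 at 24 h, and 43.2, 23.3 and 15.6 at 48 h. TRINITY_DN202528_c1_g3 had scaled values of 131 and 14.7 at 0 h, 0.533, 0.158 and 1.19 at 0.5 h, 1.91 and 1.52 at 4 h, 861, 235 and 212 at 12 h, 550.1, 501 and 928 at 24 h, and 205, 215 and 98.7 at 48 h. Both stood at 0 h between their early low and their 24 h values.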

How the data were processed

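Leaf RNA of 18 samples was sequenced as MGIEasy mRNA libraries on a BGI-seq platform, per the labels' protocols. The submitters' processing notes list Trimmomatic 0.36, a read trimmer, and FastQC, a read quality report. How reads were aligned and counted is not given in the sources used here. Deposited by the authors were a table of expected counts (estimated counts per assembled gene, not scaled between libraries) and a signal table of the same genes, scaled for length and by TMM per its name, whether as TPM or FPKM not being stated. Columns were matched to samples by title, and 0 columns were left unmatched. All 153 pairs of columns were compared, and the identical pair was left out.

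Members were found on the signal table. The members, lists and tests were chosen with earlier results of these data known. Named members are the 10 of lowest ratio, the 10 of highest mean, those of components with 3 members, those at the border and the extremes of 48 h relative to 0 h; others are said to be singled out. For tests the deposited expected counts were rounded and 16 libraries were fitted together in R 4.3.3 with edgeR 4.0.16 (filterByExpr, TMM, quasi-likelihood F test, a mean per time, Benjamini-Hochberg over 68030 genes, called at an adjusted p under 0.05). The spread between libraries of a time came to a common coefficient of variation of 69.3% in edgeR, on 10 residual degrees of freedom. Whether it is biological or technical cannot be told from the labels. Alternatives used DESeq2 1.42.0, limma 3.58.1 on log2(value + 1), other scalings and filters, a replicate block and fewer libraries. Relative length was taken from counts over signal, in genes with at least 20 reads.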

Additional observations from a re-analysis of the deposited data

Results flagged for a closer look

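The library deposited under both 0 h and 4 h enters no comparison above, and it carried the members' transcripts at a high level. The median scaled value of the 80 members in it was 15.2, against 10.9 in 0 h replicate 2 and 7.71 in 0 h replicate 3. It lay above both 0 h libraries in 39 members, between them in 20 and below both in 21. Its time was not inferred from these values.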

How the results depend on the processing

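No member was called at 4 h against 0.5 h under any of the 27 alternatives. With the identical library at 4 h alone, edgeR's quasi-likelihood test gave 45 members an unadjusted p under 0.05, against 4 in the main fit. The fit with that library called 0.00433% of all genes. Its share of all genes at the unadjusted threshold was not taken. At 24 h against 12 h, 10 members (12.5%), all higher, were called without a filter on low counts, beside 2.44% of all genes, and 0 under the other 27 (1 of them, no ceiling at 12 h, added after the data were seen). At 48 h against 24 h, DESeq2 called 3 (3.75%, beside 2.27% of all genes), limma 1 (1.25%, beside 0.985%), a fit of only those libraries 1 (1.25%, beside 1.19%) and the fit without a filter 5 (4 lower and 1 higher; 6.25%, beside 3.46%). The cause was not tested. With the replicate number as a replicate block, 0 members were called in each contrast; same-numbered libraries of different times had a median r of -0.05 over 36 pairs, so shared numbers were not taken to pair libraries. Leaving out each of the 16 libraries gave 0 to 0 members called in each contrast, and medians of 0.08 to 0.61 for 4 h against 0.5 h, 0.79 to 1.24 for 24 h against 12 h and -0.66 to -0.21 for 48 h against 24 h. Of the 80 members, 65 to 80 were taken again with a library left out, the fewest without 0 h replicate 3. Leaving out a library cannot break the separation of early from other values, so these counts do not measure how stable that separation is. Members dropped out only through the 0 h minimum, the 12 h ceiling or the limit of 100 genes. Without 0 h replicate 3, and likewise without 0.5 h replicate 3, 137 genes met the conditions, against 80 with all 16. Without 12 h replicate 1 there were 113 and without 4 h replicate 2 there were 104. In these 4 cases the 100 of lowest ratio were taken. With the identical library added to 4 h, 11 passed; added to 0 h, 72. On CPM from the counts 58 passed, where the minimum of 2 at 0 h is in a unit not scaled for length. With a minimum of 5 at 0 h on the scaled values, also 58 passed. All 80 passed with an offset of 1, a minimum of 1, or no ceiling. These settings only loosen the rule, and 83, 96 and 98 genes met them, under the limit of 100, so no member could be lost. Members with under 10 early reads are limited by depth.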
